A study of Mus musculus with 7 samples.

Results

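The 10 genes described here belong to the Slc2 family of facilitative glucose transporters: Slc2a1, Slc2a2, Slc2a3, Slc2a4, Slc2a5, Slc2a8, Slc2a9, Slc2a10, Slc2a12 and Slc2a13. They form a list of names from that family, without Slc2a6 and Slc2a7, and all 10 are found among the 21341 protein-coding genes found in the deposited table of 94339 loci. Strand-specific RNA-Seq libraries, depleted of rRNA, represent liver, kidney, cortex, skeletal muscle and 3 fat depots, which were visceral (VAT), subcutaneous (SCAT) and interscapular brown (BAT), in a survey of transcript levels across tissues. The mice were wild-type animals, of strain C57BL/6 by the labels and C57BL/6N by the study's text, aged 36 weeks on the diet labelled NCD, and these features were shared by all 7 groups. The labels do not say whether the tissues came from the same animals or from pools. Each tissue has 1 library, so there is no replicate error, no test between tissues was possible, and every difference below is a difference between single libraries. The values are FPKM, fragments scaled for transcript length and for the size of the library, so levels of different transporters can be set side by side. Folds are plain ratios of FPKM, and log2 ratios are differences of log2(FPKM + 0.1). Fragment counts were not given, and the depth is therefore unknown. A name with more than 1 locus was represented by its most abundant one.

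GLUT proteins carry sugars across membranes down their concentration gradient, without direct use of energy. They are sorted by sequence into class I (GLUT1 to GLUT4), class II (here GLUT5 and GLUT9) and class III (here GLUT8, GLUT10, GLUT12 and HMIT). GLUT2 lets hepatocytes and proximal tubule cells exchange glucose with the blood, GLUT3 serves neurons, and GLUT4 is the insulin-responsive carrier of muscle and fat, stored in vesicles that move to the cell surface. Because whole tissues were sequenced, fewer cells of a type and less RNA per cell cannot be told apart.

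The libraries carried the defining markers of their tissue, and those of VAT and SCAT also carried markers of other cells. Summed over 3 hepatocyte genes, liver had 10658 FPKM and the other tissues at most 378. The neuronal sum was 514 FPKM in cortex and at most 2.26 elsewhere, and the brown adipocyte sum was 7549 FPKM in BAT and at most 67.5 elsewhere. In the VAT library, 3 of 4 epididymis genes were above 1 FPKM, with a sum of 2639 FPKM against 0 to 1.99 in the other tissues, while the remaining gene, Lcn8, was at 0.0386. In the SCAT library, 4 of 4 lymphocyte genes summed to 107 FPKM against 0.222 to 3.25 elsewhere, and 4 of 4 pancreatic acinar genes summed to 91.8 FPKM against 0.290 to 8.77. The pancreatic islet genes, which mark the other main site of GLUT2, summed to at most 0.374 FPKM in any tissue. Of the brain endothelium genes, Slco1c1 had 11.7 FPKM in cortex and at most 0.0955 elsewhere, Cldn5 at most 0.0293 in every library, and the general endothelial gene Pecam1 had 1.46 in cortex and up to 26.6 in BAT. Macrophage and microglia genes summed to 48.8 FPKM in cortex and 12.5 to 26.6 elsewhere, and erythroid genes to 1238 FPKM in VAT and 87.6 to 1145 elsewhere. Acta1, a muscle actin, was not analysed here, and Alb and Ckm in liver and Myh4 in liver and skeletal muscle were treated as missing.

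All 10 transporters reached 1 FPKM in some tissue, as did 69.9% of protein-coding genes. The list left out Slc2a6, with 2.52 FPKM in cortex and not enriched by the rule below, and Slc2a7, at 0 in every library. The counts given here depend on that choice of members. A gene was called enriched in a tissue when it had at least 1 FPKM there and log2(FPKM + 0.1) exceeded that of every other tissue by 2 or more, a 4-fold difference. By this rule 4 of the 10 transporters were enriched, against 21.4% of the 14928 expressed protein-coding genes: Slc2a3 and Slc2a13 in cortex (8.21% of genes), Slc2a5 in kidney (2.49%) and Slc2a10 in VAT (1.21%). None was enriched in liver (3.39% of genes), SCAT (1.93%), BAT (0.757%) or skeletal muscle (3.38%). Without the 4-fold requirement, 4 transporters were highest in cortex (21.1% of genes), 2 in skeletal muscle (24%), 2 in liver (15.5%), 1 in kidney (10.6%), 1 in VAT (5.35%) and 0 in BAT (15.1%) or SCAT (8.37%). Between the white depots, 3 transporters (Slc2a2, Slc2a5 and Slc2a10) were at least 4-fold higher in VAT than in SCAT (6.34% of genes) and 0 were at least 4-fold lower (3.83%). Slc2a10 was read at an opposite-strand locus, and with loci on the annotated strand only, 3 transporters were enriched, without Slc2a10. Without the VAT library 3 were enriched, without the SCAT library 4, and without the kidney library 5, when Slc2a2 and Slc2a9 joined as liver genes and Slc2a5 left the count. The median log2 ratio of the highest over the next highest tissue was 1.64 for the transporters and 0.68 for all expressed protein-coding genes. The tissue specificity index tau, which is 0 for an equal level everywhere and 1 for a single tissue, had a median of 0.914 for the transporters and 0.678 for all genes. Slc2a8 alone had at least 1 FPKM in all 7 tissues, a breadth that 52.5% of expressed protein-coding genes share.

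**Figure D1:**
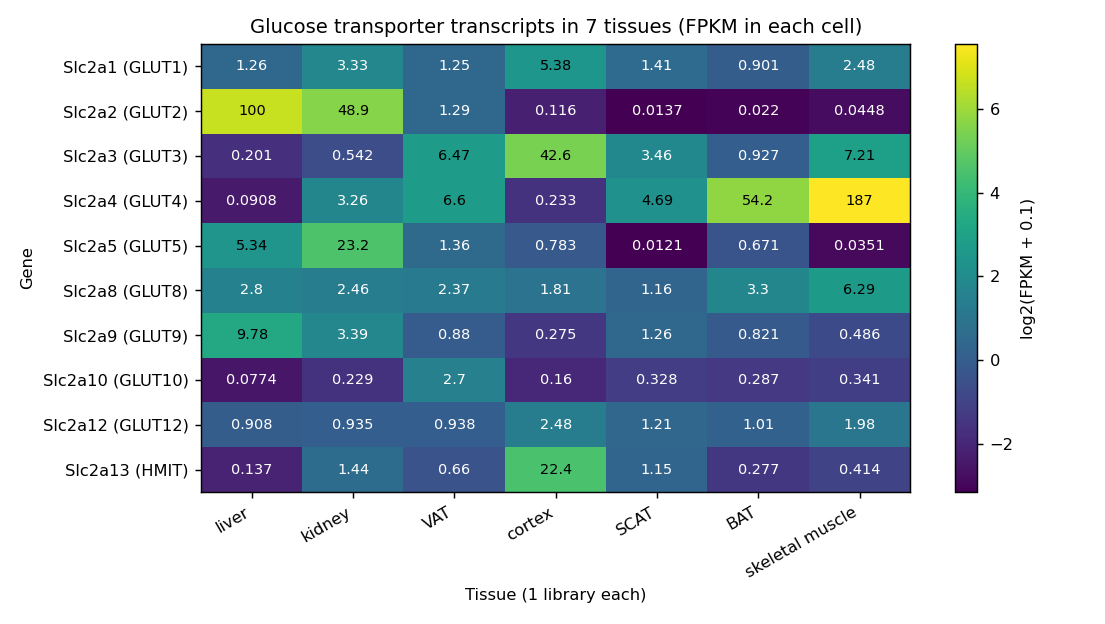
FPKM of the 10 transporters (y axis) in the 7 tissue libraries (x axis), with the FPKM written in each cell and colour giving log2(FPKM + 0.1). Slc2a4 in skeletal muscle (187 FPKM) and Slc2a2 in liver (100.3) are the brightest cells, while Slc2a12, Slc2a8 and Slc2a1 span 2.73-fold, 5.42-fold and 5.97-fold in these values as deposited, an order that changes with scaling.

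Slc2a4 (GLUT4) had the highest level of any transporter in any tissue. It measured 187 FPKM in skeletal muscle, 54.2 in BAT, 6.60 in VAT, 4.69 in SCAT, 3.26 in kidney, 0.233 in cortex and 0.0908 in liver. Skeletal muscle thus stood 3.46-fold above BAT, just short of the 4-fold rule (log2 ratio 1.79), while the log2 ratio over liver, where the level was below the added 0.1 FPKM, was 9.94. BAT had 8.22-fold the level of VAT and 11.6-fold that of SCAT, and among transporters with 1 FPKM in either tissue, Slc2a4 alone was at least 4-fold higher in BAT than in VAT (1 of 8, against 9.84% of genes) or than in SCAT (1 of 7, against 15.6%). With an equal sum over protein-coding genes these folds were 3.84 over VAT, under the 4-fold limit, and 4.41 over SCAT, and with median-of-ratios scaling 5.01 and 6.60. The adipocyte genes Adipoq, Lep, Plin1 and Cidec summed to 1419 FPKM in BAT, 1071 in VAT (75.4% of BAT) and 415 in SCAT (29.2%), and their part in the depot differences of Slc2a4 was not tested. The order of the 7 tissues was the same under both other scalings of the libraries. The gene lies on the minus strand of chromosome 11 of GRCm38, from 69942539 to 69948188.

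Muscle transcripts in the BAT library and fat transcripts in the kidney library were compared with Slc2a4 there. In BAT, Ckm (muscle creatine kinase) had 1.93% of its skeletal muscle level and Mylpf (a fast myosin light chain) 1.46%, whereas Slc2a4 had 28.9%. In kidney, Slc2a4 stood at 6.01% of its BAT level, beside 0.518% for Adipoq, 3.70% for Lep, 0.397% for Plin1, 0.533% for Cidec, 0.162% for Ucp1, 0.270% for Cidea and 0.155% for Elovl3. Slc2a4 in these libraries was a larger fraction of its reference tissue level than each marker listed. The part of muscle RNA in the BAT value and of fat RNA in the kidney value was not tested.

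**Figure D2:**
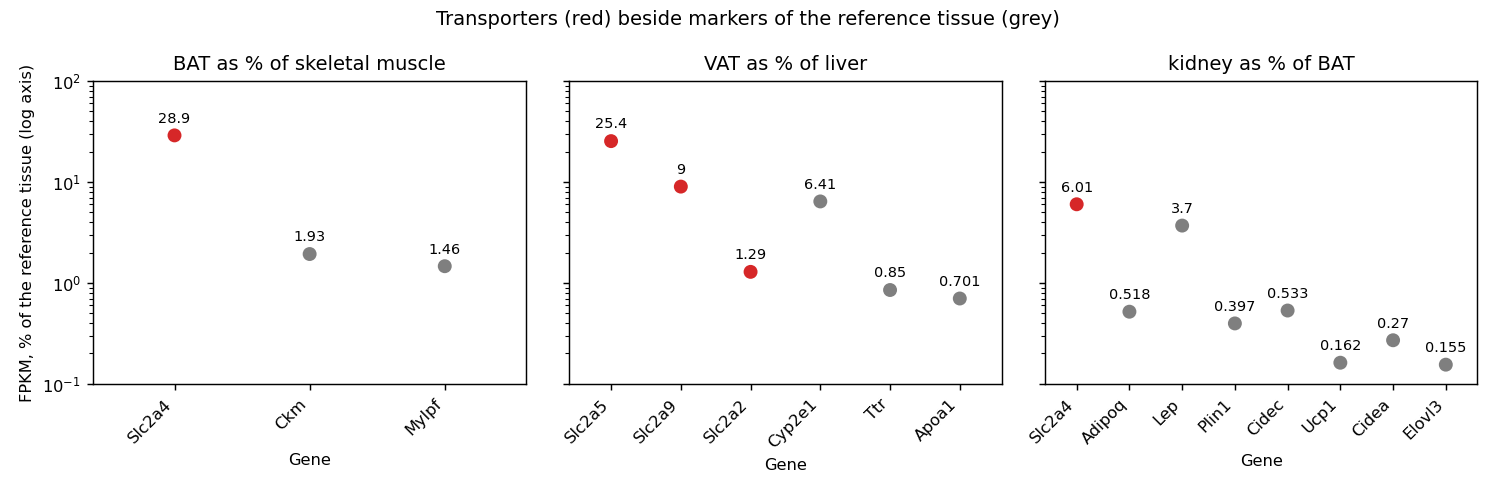
FPKM in 1 tissue as a percent of that in a reference tissue (y axis, log scale) for transporters (red) and markers of the reference tissue (grey), named on the x axis. Slc2a4 in BAT sits at 28.9% of skeletal muscle with markers at 1.46% and 1.93%, while Slc2a2 in VAT sits at 1.29% of liver, among the hepatocyte markers at 0.701% to 6.41%.

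The merged locus of Slc2a4 in the table runs from 69935796 to 69948528 and so covers the whole of Ybx2, a germ cell RNA-binding protein gene on the plus strand whose end lies 933 bases from the Slc2a4 gene. The locus named Ybx2 had 50.5 FPKM in skeletal muscle, 19.4 in BAT, 2.71 in VAT and 1.99 in kidney, and at most 1.97 in the other tissues. Its log2(FPKM + 0.1) followed that of Slc2a4 over the 7 tissues with a Pearson r of 0.974. Whether its fragments belong to Ybx2 or to transcripts of Slc2a4 cannot be told apart from the table.

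Genes of GLUT4 vesicle traffic, a list of 12, were spread more evenly than Slc2a4 itself. The list had a median log2 ratio of 0.48 (0.68 for all expressed protein-coding genes), and 1 of 12 was enriched in a tissue (21.4% of genes): Vamp2, a vesicle SNARE also used in synapses, with 14.9 FPKM in cortex at a locus on the opposite strand. Rhoq (TC10, a small GTPase of insulin-stimulated uptake) had 49.1 FPKM in skeletal muscle and 48.7 in BAT against 2.66 to 11.7 in the other tissues. Rab10, a GTPase of the vesicles, had 49.8 FPKM in skeletal muscle and at most 14.8 elsewhere. Tbc1d4 (AS160), the Rab regulator that insulin signalling switches off, had 11.2 FPKM in skeletal muscle, 8.47 in BAT, 5.77 in SCAT and 3.52 in VAT. Lnpep, the vesicle aminopeptidase, varied less, from 13.8 FPKM in liver to 28.1 in BAT. Of the 12 genes, 9 were highest in skeletal muscle or BAT, as were 39.1% of expressed protein-coding genes. This count depends on the scaling: with median-of-ratios scaling it was 5 (25.2% of genes), and with an equal sum over protein-coding genes 3 (16.6%).

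**Figure D3:**
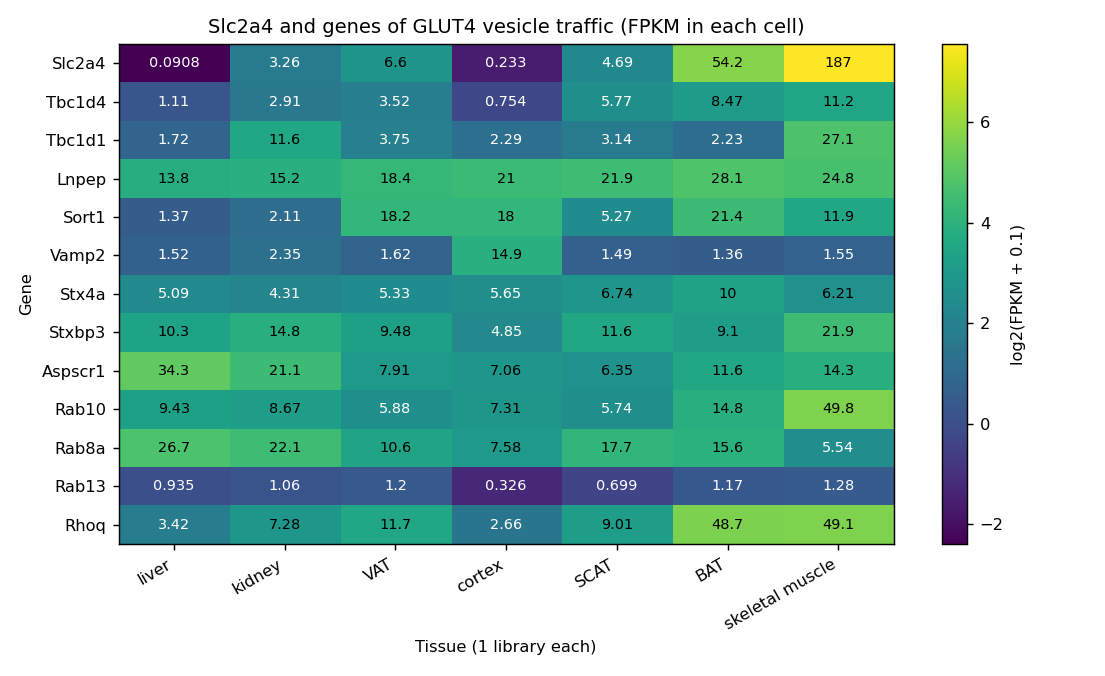
FPKM of Slc2a4 and of 12 genes of GLUT4 vesicle traffic (y axis) in the 7 tissue libraries (x axis), with colour giving log2(FPKM + 0.1). The top row spans 0.0908 to 187 FPKM, a wider range than any row beneath it, and Rhoq reaches 48.7 in BAT and 49.1 in skeletal muscle.

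Liver and kidney were the 2 highest tissues for 3 of the 10 transporters (8.29% of expressed protein-coding genes): Slc2a2, Slc2a5 and Slc2a9. Slc2a2 (GLUT2), on the plus strand of chromosome 3 from 28697903 to 28731359, measured 100.3 FPKM in liver, 48.9 in kidney, 1.29 in VAT, 0.116 in cortex, 0.0448 in skeletal muscle, 0.0220 in BAT and 0.0137 in SCAT. Liver was 2.05-fold above kidney, and these tissues stood far above the rest: without kidney, the log2 ratio of liver over the next tissue, VAT, was 6.17. The VAT level was 1.29% of that in liver, beside 0.850% for Ttr, 0.701% for Apoa1 and 6.41% for Cyp2e1, all hepatocyte genes. The part of such RNA in the VAT value was not tested.

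Slc2a5 (GLUT5), the fructose transporter, had the reverse order. On the plus strand of chromosome 4 from 150119283 to 150144169, it measured 23.2 FPKM in kidney, 5.34 in liver, 1.36 in VAT, 0.783 in cortex, 0.671 in BAT, 0.0351 in skeletal muscle and 0.0121 in SCAT. Kidney was 4.34-fold above liver (log2 ratio 2.10). The white depots differed, with 1.36 FPKM in VAT and 0.0121 in SCAT. In VAT, Slc2a5 stood at 25.4% of liver, above the hepatocyte genes Ttr, Apoa1 and Cyp2e1. It stood at 5.85% of kidney, above the proximal tubule genes Lrp2 (1.90%), Cubn (0.0924%), Slc22a6 (0.0175%) and Slc34a1 (0.00886%). VAT is the library with the epididymis genes (2639 FPKM summed), and their part in its Slc2a5 value was not tested.

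Slc2a9 (GLUT9), the urate transporter of the family, lies on the minus strand of chromosome 5 from 38349273 to 38503143. It measured 9.78 FPKM in liver, 3.39 in kidney, 1.26 in SCAT, 0.880 in VAT, 0.821 in BAT, 0.486 in skeletal muscle and 0.275 in cortex. Liver was 2.88-fold above kidney. The lincRNA 4930487D11Rik, on the plus strand 75 bases beyond the end of Slc2a9 and within the merged locus, had 7.55 FPKM in liver, 2.51 in kidney and at most 0.789 elsewhere, and followed Slc2a9 with a Pearson r of 0.993 over the 7 tissues.

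Genes that work beside these carriers were measured too. Of 6 urate handling genes, 4 were enriched (21.4% of genes): the kidney transporters Slc22a12 (URAT1, 424 FPKM in kidney and at most 0.111 elsewhere), Slc17a1 (270 FPKM) and Slc17a3 (179 FPKM), and in liver Uox, the urate oxidase, with 614 FPKM against 7.21 in VAT. Among sugar kinases and glucose-6-phosphatases, Khk, which phosphorylates fructose, had 39.9 FPKM in kidney and 30.9 in liver and at most 2.18 elsewhere. G6pc, which releases free glucose, had 57.0 FPKM in liver, 36.7 in kidney and at most 0.905 elsewhere, at a locus on the opposite strand. Hk2, the hexokinase of insulin-responsive tissues, had 33.9 FPKM in skeletal muscle and 17.1 in BAT, the same leading tissues as Slc2a4, and Hk1 had 18.2 in cortex.

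Of 8 transporters with a RefSeq promoter entry (GRCm38.p6), 3 are shown, because Slc2a2 and Slc2a5 share liver and kidney as leading tissues while Slc2a1 is spread over most tissues. Slc2a3 and Slc2a4 had no entry. Each line gives the 250 bases before the transcription start of that entry, 5′ to 3′ on the strand of the gene, with CpG dinucleotides in capitals. The windows of Slc2a5 and Slc2a1 end inside the genes as annotated by GENCODE, which start at 150119283 and 119108711.
Slc2a2 (plus strand, chr3:28697653-28697902): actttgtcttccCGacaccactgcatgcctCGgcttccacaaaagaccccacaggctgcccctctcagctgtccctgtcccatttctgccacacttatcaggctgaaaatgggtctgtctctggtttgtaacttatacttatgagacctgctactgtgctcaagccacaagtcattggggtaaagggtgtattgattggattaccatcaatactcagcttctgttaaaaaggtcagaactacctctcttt
Slc2a5 (plus strand, chr4:150119094-150119343): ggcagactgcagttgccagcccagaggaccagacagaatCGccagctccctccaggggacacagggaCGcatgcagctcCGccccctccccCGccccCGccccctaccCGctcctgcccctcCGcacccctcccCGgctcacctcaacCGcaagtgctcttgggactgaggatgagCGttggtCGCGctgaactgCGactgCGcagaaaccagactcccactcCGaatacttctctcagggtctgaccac
Slc2a1 (plus strand, chr4:119108495-119108744): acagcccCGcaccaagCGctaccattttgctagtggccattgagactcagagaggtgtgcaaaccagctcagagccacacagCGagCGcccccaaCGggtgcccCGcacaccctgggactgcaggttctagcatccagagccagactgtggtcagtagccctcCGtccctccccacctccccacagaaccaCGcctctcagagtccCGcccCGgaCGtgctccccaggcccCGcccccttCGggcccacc
The Slc2a2 window holds 2 CpGs and 47.2% G and C, the Slc2a5 window 15 and 66.4%, and the Slc2a1 window 13 and 66.4%, while the median over 32851 promoter windows is 6 CpGs and 52.4%. The third liver and kidney gene, Slc2a9, has 1 CpG and 48.8% in its window (38483386 to 38483635). That window lies wholly inside the gene as annotated by GENCODE, which runs from 38349273 to 38503143. The windows of Slc2a2 and Slc2a9 lie below the median and that of Slc2a5 above it. The GC box GGGCGG, searched on both strands, was found 3 times in the Slc2a5 window, 2 times in that of Slc2a1 and not in that of Slc2a2, and it was in 4 of the 8 windows and 32.7% of all windows. The TATA box TATAAA (12.4% of all windows), the HNF1 half-site GTTAAT (6.43%), the HNF4 element CAAAGTCCA (0.384%) and the E-box CACGTG (6.02%) matched none of the 8 windows. A loose form of the MEF2 element, which allows any base at its 4 central positions, matched the windows of Slc2a10 and Slc2a12 and 3.2% of all windows, with 3 and 0 of those positions being A or T.

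Slc2a3 (GLUT3), the high-affinity carrier of neurons, was enriched in cortex. On the minus strand of chromosome 6 from 122727809 to 122801640, it measured 42.6 FPKM in cortex, 7.21 in skeletal muscle, 6.47 in VAT, 3.46 in SCAT, 0.927 in BAT, 0.542 in kidney and 0.201 in liver. Cortex was 5.91-fold above skeletal muscle (log2 ratio 2.55). Skeletal muscle and VAT changed places under both other scalings, so their order is not resolved. Slc2a3 had 16.9% of its cortex level in skeletal muscle and 15.2% in VAT. The neuronal genes Snap25, Syt1, Rbfox3 and Map2 had at most 0.560% in skeletal muscle and at most 0.475% in VAT. VAT is also the library with the epididymis genes (2639 FPKM summed). The source of Slc2a3 in these libraries was not tested.

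Slc2a13 (HMIT), which carries myo-inositol together with protons rather than glucose, had the largest log2 ratio of the 10, 3.87. It measured 22.4 FPKM in cortex, 1.44 in kidney, 1.15 in SCAT, 0.660 in VAT, 0.414 in skeletal muscle, 0.277 in BAT and 0.137 in liver. Cortex was 15.6-fold above kidney, and kidney and SCAT changed places under the other scalings. These values belong to an opposite-strand locus, since the gene itself lies on the minus strand of chromosome 15 from 91267696 to 91573261. The locus on the annotated strand had 5.93 FPKM in cortex and 0.399 in kidney, and it too was enriched in cortex.

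Slc2a1 (GLUT1), the basal carrier of many cells and of the blood-brain barrier, was low and broad. On the plus strand of chromosome 4 from 119108711 to 119137983, it measured 5.38 FPKM in cortex, 3.33 in kidney, 2.48 in skeletal muscle, 1.41 in SCAT, 1.26 in liver, 1.25 in VAT and 0.901 in BAT. The whole span, cortex over BAT, was 5.97-fold, and it was 8.40-fold with median-of-ratios scaling and 13.1-fold with an equal sum over protein-coding genes. Skeletal muscle and SCAT, and likewise liver and VAT, changed places when the libraries were scaled in other ways.

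Slc2a8 (GLUT8), an intracellular carrier, and Slc2a12 (GLUT12) were also broad. Slc2a8, on the minus strand of chromosome 2 from 32972990 to 32982083, measured 6.29 FPKM in skeletal muscle, 3.30 in BAT, 2.80 in liver, 2.46 in kidney, 2.37 in VAT, 1.81 in cortex and 1.16 in SCAT. Skeletal muscle was 1.91-fold above BAT and 2.66-fold above VAT, but with an equal sum over protein-coding genes VAT came next and the lead over it was 1.04-fold. Slc2a12, on the plus strand of chromosome 10 from 22645011 to 22704285, spanned 2.73-fold as deposited, less than Slc2a8 (5.42-fold), but this order turned under both other scalings, to 3.46-fold against 2.90-fold with median ratios and 6.73-fold against 2.12-fold with equal sums. It measured 2.48 FPKM in cortex, 1.98 in skeletal muscle, 1.21 in SCAT, 1.01 in BAT, 0.938 in VAT, 0.935 in kidney and 0.908 in liver. The gene overlaps the minus-strand gene Tbpl1 by 407 bases, and the merged locus behind these values covers all 28060 bases of Tbpl1. Tbpl1, with 14.5 FPKM in cortex and 12.7 in skeletal muscle, was highest in the same tissues, and its Pearson r with Slc2a12 was 0.896. Whether the fragments behind the Slc2a12 values belong to Slc2a12 or to Tbpl1 cannot be told apart here.

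Slc2a10 (GLUT10) was the member whose own highest level fell in a white depot. It measured 2.70 FPKM in VAT, 0.341 in skeletal muscle, 0.328 in SCAT, 0.287 in BAT, 0.229 in kidney, 0.160 in cortex and 0.0774 in liver. VAT was thus 7.92-fold above the next tissue, while the other 6 lay between 0.0774 and 0.341. The gene spans 165503787 to 165519917 of chromosome 2 on the plus strand, and the locus used is on the opposite strand. The annotated strand had 0.248 FPKM in VAT and did not reach 1 FPKM in any tissue. VAT is also the library with the epididymis genes (2639 FPKM summed), and the part of epididymal RNA in the Slc2a10 value was not tested.

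Each tissue had its own mix of transporter transcripts. Skeletal muscle had the highest sum over the 10 genes, 207 FPKM, followed by liver (121), kidney (87.6), cortex (76.3), BAT (62.5), VAT (24.5) and SCAT (14.7). This order depends on scaling: with an equal sum over protein-coding genes, skeletal muscle (122) was followed closely by cortex (117), then by kidney (79.3) and liver (75.5), and with median-of-ratios scaling cortex (87.6) passed kidney (84.5). Slc2a4 made up 90.7% of the sum in skeletal muscle and 86.9% in BAT. Slc2a2 made up 83.0% in liver and 55.8% in kidney, where Slc2a5 added 26.4%. In cortex, Slc2a3 held 55.9% and Slc2a13 29.4%. The Slc2a13 share, and with it the class shares of cortex below, rests on an opposite-strand locus with 22.4 FPKM. Its annotated-strand locus had 5.93 FPKM in cortex. The white depots had no such majority: Slc2a4 led with 26.9% in VAT and 31.9% in SCAT, followed by Slc2a3 with 26.4% and 23.5%. The VAT library also held epididymis genes (2639 FPKM summed), and the SCAT library lymphocyte (107) and pancreatic acinar genes (91.8). The part of such RNA in these shares was not tested. In VAT the gap between Slc2a4 and Slc2a3 was 1.02-fold, and when all loci of a name were summed Slc2a3 led in both VAT and SCAT. The 4 class I genes together held from 63.4% of the sum in cortex to 95.4% in skeletal muscle. Class III held from 3.25% in liver to 35.2% in cortex.

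**Figure D4:**
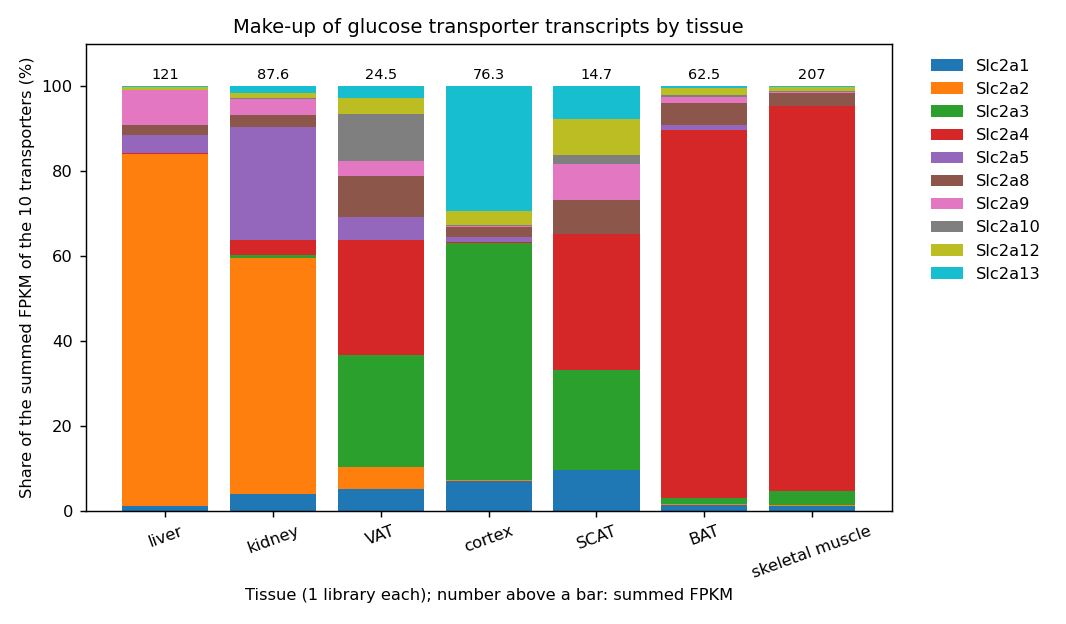
Share of the summed FPKM of the 10 transporters taken by each of them (y axis, percent) in the 7 tissue libraries (x axis), with the summed FPKM above each bar. Slc2a4 fills 90.7% of the skeletal muscle bar and 86.9% of the BAT bar, Slc2a2 fills 83.0% of the liver bar, and no gene passes 31.9% in VAT or SCAT. Slc2a10 and Slc2a13 are drawn from opposite-strand loci.

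The table lists 23 loci under the 10 names, 10 on the annotated strand and 13 on the opposite strand, as inferred from how the loci are ordered. Of the 13 opposite-strand loci, 12 were highest in the same tissue as the annotated locus of their gene, the exception being a Slc2a3 locus with 0.816 FPKM in BAT. For Slc2a2, an opposite-strand locus had 44.5 FPKM in liver, 21.3 in kidney and 0.762 in VAT, and it followed the annotated locus over the 7 tissues with a Pearson r of 0.997. In the highest tissue, the leading opposite-strand locus had 44.4% of the annotated one for Slc2a2, 27.3% for Slc2a5, 23.9% for Slc2a9, 20.9% for Slc2a3 and 16.1% for Slc2a8. Slc2a1, Slc2a4 and Slc2a12 had a single locus under their name. Whether the opposite-strand loci are antisense transcripts or fragments given to the wrong strand cannot be told apart here.

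**Figure D5:**
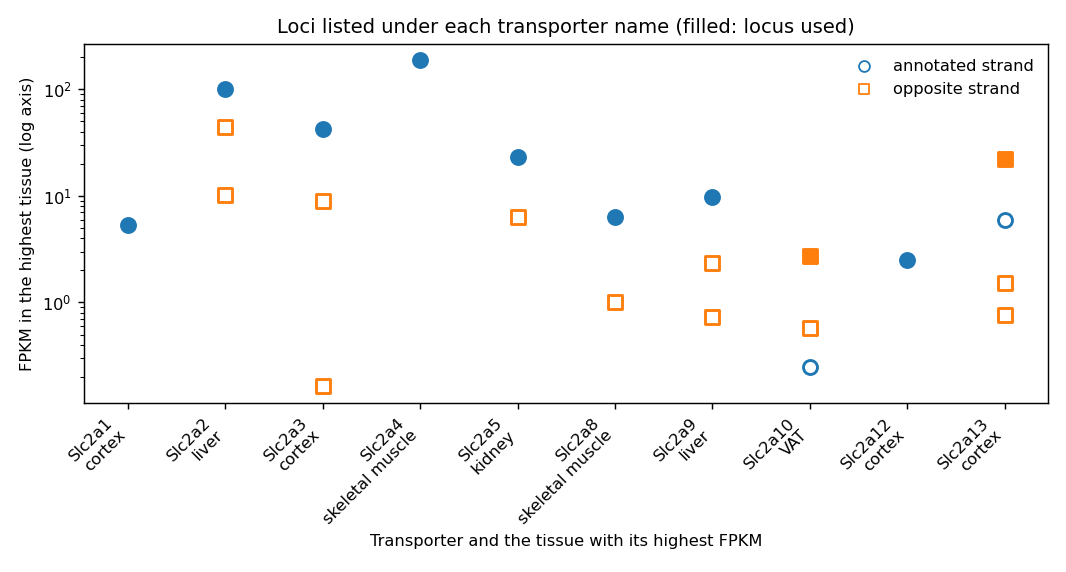
FPKM of each locus listed under a transporter name (y axis, log scale) in the tissue where the locus used is highest (named on the x axis), with circles for the annotated and squares for the opposite strand, filled for the locus used. Only for Slc2a10 (2.70 against 0.248 FPKM) and Slc2a13 (22.4 against 5.93) is the opposite strand above the annotated one.

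For each transporter up to 3 protein-coding genes with the most similar profile were named, by Pearson r of log2(FPKM + 0.1) over the 7 tissues. With 7 points from the same libraries these are descriptions. Slc2a2 was closest to Cyp2a5 (r 0.998) and Cyp4a12a (0.997), and 31 genes had an r above 0.99 with it. Slc2a4 was closest to Ttc28 (0.982), Pdk4 (0.979), a brake on glucose oxidation with 1151 FPKM in skeletal muscle and 796 in BAT, and its neighbour Ybx2. Slc2a9 was closest to Cbx2 (0.994), Dna2 (0.994) and Selenop (0.983), and Slc2a5 to Tpmt (0.977), Snx7 (0.952) and Myo6 (0.950). Slc2a3 was closest to Cacna1h (0.988), Tpsg1 (0.986) and Tspyl2 (0.984), and Slc2a13 to Ptchd1 (0.989), C2cd5 (0.989) and Pcp4 (0.988). Slc2a10 was closest to Iqcf3 (0.966), Spink2 (0.962) and Spem1 (0.959), of which Spink2 had 49.4 FPKM in VAT and at most 0.403 elsewhere. Slc2a8 was closest to Wdr83os (0.997), Wdr83 (0.984) and Dhx32 (0.979), Slc2a12 to Kcnq5 (0.992), Rnf220 (0.991) and March4 (0.989), and Slc2a1 to B4galt3 (0.980), Mtcl1 (0.974) and Pak1 (0.972).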

How the data were processed

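RNA-Seq of 7 mouse tissues was used, with 1 library per tissue, grouped by the tissue label. The authors removed adapters with flexbar and rRNA reads with Bowtie2 (2.2.9), aligned to GRCm38 with STAR (2.6.0c), and assembled, merged and compared transcripts with Cufflinks (2.2.1). The authors deposited cuffdiff's table, whose values are FPKM. Its further columns hold the authors' comparisons of 2 tissues and were not used, except the status. Depth is unknown, so no interval was computed.

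The 151 loci with status FAIL were dropped and zeros with status LOWDATA were set to missing. Gene biotypes, names and strands came from GENCODE M21 of the same build. Strand was inferred from how the table orders its loci, and 75.3% of named loci then fall on the annotated strand. Levels were compared as log2(FPKM + 0.1), which understates changes of low genes. No statistical test was made. Named are all members, their 3 closest genes, and from each list the highest or enriched genes, some of which are not reported here. Genes overlapping a member, and some list genes, were chosen after their values were seen. Members, lists and motifs were chosen with earlier results of these data known. Promoter sequences are from RefSeq. Coordinates are 1-based. Computation used pandas 2.3.3 and NumPy 2.4.6 under Python 3.11.15, with plots from matplotlib 3.10.9.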

Additional observations from a re-analysis of the deposited data

How the results depend on the processing

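No paired analysis was possible because the tissues are unreplicated. Of 13 alternatives, 11 left the count of enriched transporters within 1.5 times of 4, but 3 of these (LOWDATA zeros as 0, no minimum, without SCAT) could not change it. With a pseudocount of 1 the count was 2 (Slc2a3 and Slc2a13), and with a 2-fold rule it was 7. Of 98 log2 ratios of single transporters under other pseudocounts, scalings, loci or tissues, 45 were identical to the deposited value because the alternative left their inputs as they were. Of the other 53, 46 moved by less than 1.5-fold and 7 by more, of which 3 rose and 4 fell, and 0 changed sign. Loci on the annotated strand left 9 transporters with 1 FPKM and 3 enriched, in both cases without Slc2a10. A minimum of 5 FPKM left 8 transporters at that level. Median-of-ratios scaling shifted log2 values by between -0.39 (skeletal muscle) and 0.52 (SCAT), and an equal sum over protein-coding genes by between -0.76 (skeletal muscle) and 0.88 (SCAT). Under these scalings 14 of 60 neighbouring tissues changed places. Sums over the transporters, spans and single folds were recomputed under both scalings after the data were seen. Because depth is unknown, it cannot be said which low FPKMs rest on few fragments.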

Other observations

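Sodium-coupled carriers lift sugars against their gradient and were not part of the family above. Of 6 sodium-coupled and SWEET transporters, 4 were enriched in kidney (2.49% of genes): Slc5a10 with 87.8 FPKM and 7.26 in SCAT, Slc5a2 (SGLT2) with 80.3 FPKM and 2.60 in liver, Slc5a1 (SGLT1, at an opposite-strand locus) with 24.9 FPKM and 0.303 in liver, and Slc5a9 with 4.14 FPKM and 0.0428 in VAT. Slc5a11 was not enriched, with 26.5 FPKM in kidney, 19.7 in cortex and 16.1 in skeletal muscle, at a locus it shares with Lcmt1. Slc50a1, the SWEET protein, was even, from 4.52 FPKM in liver to 10.6 in SCAT. Of the family members outside the 10, Slc2a6 reached 2.52 FPKM in cortex and 0.883 to 1.56 elsewhere, and Slc2a7 was listed at 0 in every library.

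Among 11 genes that regulate transporter genes or their surface level, 2 were enriched (21.4% of genes): Foxa2 with 8.23 FPKM in liver and at most 0.0616 elsewhere, and Mef2d with 29.5 FPKM in skeletal muscle and 5.21 in BAT. Txnip, which lowers GLUT1 and GLUT4 at the cell surface, had 196 FPKM in BAT, 173 in skeletal muscle, 133 in VAT, 125 in SCAT, 78.5 in kidney, 37.3 in liver and 2.63 in cortex. Foxa2 and Hnf4a were read at opposite-strand loci. Hnf4a had 207 FPKM in liver and 159 in kidney and at most 2.42 elsewhere, and Mef2c had 212 FPKM in skeletal muscle and 84.3 in cortex.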
